A study of Mus musculus with 8 samples.

Results

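The 9 genes described here carry dietary sugar through the absorptive cell of the small intestine, from the enzymes that split it in the gut lumen to the enzymes that process it inside the cell. They were taken as a list of mouse symbols and matched by Ensembl identifier in the count tables of small intestinal (SI) and colonic (COL) crypts, where all 9 of them were found among 45706 genes and all 9 passed the filter on low counts that left 14491 genes for testing. Lct, Sis, Mgam and Treh encode disaccharidases, Slc5a1, Slc2a2 and Slc2a5 encode sugar transporters, and Khk and G6pc encode enzymes that add a phosphate to fructose and remove one from glucose.

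RNA-Seq was performed on crypts freshly isolated from the SI and the COL of 4 wild-type C57BL/6N mice, so that each mouse gave 1 SI and 1 COL library and no animal carried a transgene or received a treatment. In the study's numbering mice 1 and 4 were female and mice 2 and 3 were male. The labels give replicate 4 of both tissues the donor number 5, and this animal was taken to be mouse 4. No age is given. The comparison asks how the transcriptomes of SI and COL crypts differ before any oncogene is switched on. Crypts are epithelial pockets in which stem and progenitor cells reside, and the protocol given for organoid culture scrapes the villi off the proximal SI before the crypts are released. The p-values measure the spread between 4 mice per tissue.

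Starch, sucrose, lactose and trehalose are not absorbed whole. Disaccharidases anchored in the brush border of enterocytes cut them to glucose, galactose and fructose, SGLT1 (Slc5a1) brings glucose and galactose into the cell with sodium, GLUT5 (Slc2a5) brings in fructose, and GLUT2 (Slc2a2) lets hexoses leave towards the blood. Inside the cell, ketohexokinase (Khk) commits fructose to breakdown, and glucose-6-phosphatase (G6pc) releases free glucose. Some of these genes, among them Lct and Sis, are known as markers of mature enterocytes on the villus rather than of the crypt base.

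Upstream windows of 250 bases, ending at the base before the RefSeq start of the gene (GRCm38.p6), were found for all 9 genes and searched on both strands for 3 motifs. The windows of 5 of the genes that start at the same base in both annotations used are printed because these genes rose together in the SI while their windows differ in the motifs they hold. Treh starts at the same base too, but its window, which holds none of the motifs, is not printed. Capitals mark matches to GATAA, the core bound by GATA factors (read as TTATC on the other strand), to ATAAA, bound by CDX factors (read as TTTAT), and to TATAAA, the TATA box (read as TTTATA). Every TATAAA holds an ATAAA, and a TTTAT and a TTATC overlap in the Lct window. The Lct window lies at chr1:128328319-128328568 and the Sis window at chr3:72967864-72968113, both on the minus strand and printed 5′ to 3′ towards the gene. The Mgam window at chr6:40628581-40628830, the Slc2a2 window at chr3:28697653-28697902 and the Slc5a1 window at chr5:33103969-33104218 lie on the plus strand.
Lct: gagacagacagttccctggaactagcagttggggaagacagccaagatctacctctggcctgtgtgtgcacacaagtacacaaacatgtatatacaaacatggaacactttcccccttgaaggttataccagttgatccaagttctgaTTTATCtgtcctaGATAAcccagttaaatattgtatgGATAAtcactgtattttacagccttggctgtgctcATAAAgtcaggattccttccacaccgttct
Sis: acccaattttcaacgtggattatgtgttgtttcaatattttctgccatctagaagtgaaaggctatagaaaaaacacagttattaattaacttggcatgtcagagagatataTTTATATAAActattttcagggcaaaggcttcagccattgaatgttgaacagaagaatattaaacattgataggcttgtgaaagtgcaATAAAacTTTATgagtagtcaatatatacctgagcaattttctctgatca
Mgam: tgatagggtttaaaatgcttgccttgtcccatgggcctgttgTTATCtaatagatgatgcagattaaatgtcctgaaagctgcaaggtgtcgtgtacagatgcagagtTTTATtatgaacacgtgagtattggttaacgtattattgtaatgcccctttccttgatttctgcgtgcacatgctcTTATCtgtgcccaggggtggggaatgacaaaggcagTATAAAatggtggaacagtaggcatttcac
Slc2a2: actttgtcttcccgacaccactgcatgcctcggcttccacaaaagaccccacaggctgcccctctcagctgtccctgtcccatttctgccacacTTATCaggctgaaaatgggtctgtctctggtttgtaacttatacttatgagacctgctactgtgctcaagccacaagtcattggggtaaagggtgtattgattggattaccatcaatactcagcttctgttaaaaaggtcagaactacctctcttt
Slc5a1: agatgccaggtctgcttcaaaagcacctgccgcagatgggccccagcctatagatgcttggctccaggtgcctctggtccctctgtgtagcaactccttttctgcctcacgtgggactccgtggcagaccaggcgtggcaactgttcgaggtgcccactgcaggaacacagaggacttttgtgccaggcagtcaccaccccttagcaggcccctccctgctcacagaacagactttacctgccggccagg

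The Lct window held 3 GATAA matches, 101, 89 and 65 bases upstream of the start. The Mgam window held 2 and the Slc2a2 window 1, and none of the other 6 windows held any, against 22.6% of the 32851 promoter windows in the table. ATAAA was found in the windows of Lct, Sis, Mgam and G6pc and in 37.3% of all, and TATAAA in those of Sis, Mgam and G6pc and in 12.4% of all. The windows of Treh, Slc5a1, Slc2a5 and Khk held none of these letters. The GC content ran from 31.6% in the Sis window to 67.2% in the Khk window, with a median of 52.4% over all windows. These matches are descriptions of letters and not of bound sites.

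Total counts ranged from 15969428 to 32908060 per library. Counts of the mitochondrial genome took 22.7% to 50.8% of SI2, SI3, COL1 and COL2 and 4.83% to 7.35% of the other 4 libraries, so that within the SI, though not within the COL, the share and the sex of the mouse cannot be told apart. Levels are given as CPM, counts per 1000000 counts in the genes tested after TMM scaling. The epithelial markers Epcam and Cdh1 were present in every library at 391 to 906.1 CPM and at 463.1 to 839.4 CPM. Markers of other tissues were low, with pancreatic acinar genes summing to at most 1.99 CPM and the hepatocyte genes Alb and Cyp2e1 to at most 2.66 CPM in any library. All 8 mature enterocyte markers were higher in the SI by edgeR's test, summing to 59110 to 141000 CPM against 274.6 to 891.1 CPM in the COL, as were 2 of 3 villus tip markers, 2 of 3 Paneth cell markers (Lyz1 and Mmp7) and Olfm4 of 4 crypt base stem cell markers. The colonocyte markers Car1, Car4 and Aqp8 of 4 were higher in the COL, with the goblet cell marker Muc2 of 4 and the endothelial Pecam1 of 4 stromal and endothelial markers. Of 3 tested immune markers Cd3e was higher in the SI, and none of 3 proliferation, 2 enteroendocrine and 2 tuft cell markers passed the test. SI1 stood apart in the SI, with Lgr5 at 0.634 CPM against 5.82 to 11.2 CPM in the other SI libraries and Ascl2 at 0.

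All 9 sugar genes were higher in the SI than in the COL. Tissues were compared by the quasi-likelihood test of edgeR, with p-values adjusted after Benjamini and Hochberg over the 14491 genes and a threshold of 0.05. By this test 28.4% of all genes tested differed between the tissues, 15.5% being higher in the SI. For each of the 9 genes the lowest SI library exceeded the highest COL library, as for 17.8% of all genes tested, and the exact two-sided permutation p was 0.0286 for each, the smallest that 4 against 4 libraries can give over 70 assignments that leave the pairing by mouse aside. Each gene was higher in the SI of 4 of 4 mice, and swapping the tissues within mice gives a difference of this size in 2 of 16 assignments, the fewest that a two-sided exact test within mice can give and too few to reach 0.05. The median log2 fold change of the 9 genes was 8.24, against -0.09 over all genes tested. Together they took 1.36% to 1.75% of all counts in the SI libraries and 0.028% to 0.0594% in the COL libraries. In bulk crypts, fewer cells that express a gene and less of its RNA per cell cannot be told apart. Beside each of these differences stands that of the mature enterocyte markers, whose part in it was not tested.

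**Figure D1:**
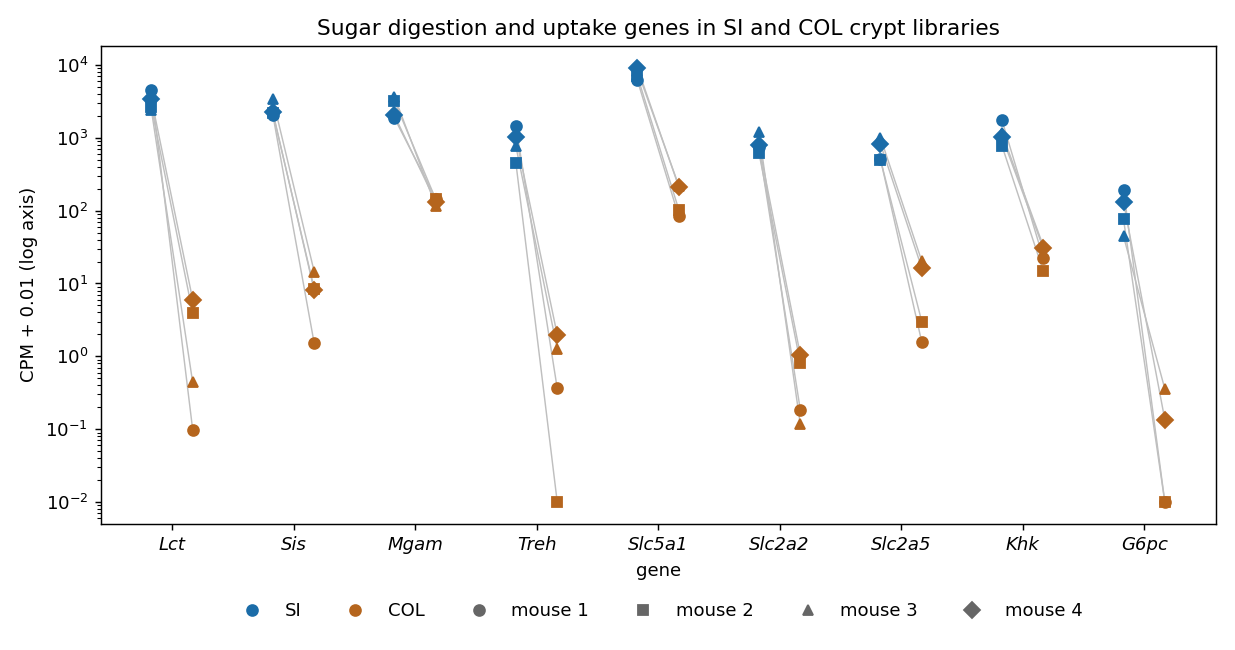
Level of each of the 9 genes in every library, as CPM + 0.01 on a log axis, with SI in blue, COL in brown, a symbol for each mouse and a line joining the libraries of 1 mouse. For every gene the 4 SI points lie above the 4 COL points, with the narrowest gap for Mgam and COL points at 0 CPM for Treh (COL2) and G6pc (COL1 and COL2).

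The 4 disaccharidases were higher in the SI by log2 fold changes of 4.33 to 10.28. Lct (ENSMUSG00000026354, chr1:128284756-128328318, minus strand, GRCm38), lactase, which splits milk sugar, stood at 4461, 2630, 2414 and 3416 CPM in SI1 to SI4. In COL1 to COL4 it stood at 0.088, 3.92, 0.428 and 5.99 CPM. The COL values thus spread far more than the SI values and stayed far below them. The value in COL1 rests on 3 counts, with a 95% exact Poisson interval of 0.0182 to 0.257 CPM that covers counting error only. The means were 3230 ± 927 CPM in the SI and 2.61 ± 2.84 CPM in the COL (SD, n = 4 each), and the log2 fold change was 10.28 (SE 1.31, edgeR adjusted p = 0.000166). COL4, the library with the most Lct in the COL, was also the highest COL library for 6 of the 8 mature enterocyte markers, among them Apoa1 at 63.6 CPM, while Alpi and Fabp2 were highest in COL3. Without COL4 the log2 fold change of Lct was 11.19.

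Sis (ENSMUSG00000027790, chr3:72888557-72967863, minus strand) encodes sucrase-isomaltase, which splits sucrose and the branch points of starch. It stood at 2049, 2163, 3374 and 2235 CPM in the SI libraries and at 1.50, 8.45, 14.5 and 8.02 CPM in the COL libraries. SI3 was the highest SI library by a wide gap and COL1 the lowest COL library. The means were 2455 ± 617 and 8.12 ± 5.31 CPM (SD, n = 4 each), a log2 fold change of 8.24 (SE 0.79, edgeR adjusted p = 2.93e-05). It was 7.57 among the 4 libraries of low mitochondrial share and 9.10 among the 4 of high share.

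Mgam (ENSMUSG00000068587, chr6:40628831-40769123, plus strand) encodes maltase-glucoamylase, which trims glucose from the ends of starch fragments. It had the smallest fold change of the 9 genes and the highest COL level of the disaccharidases. Its levels were 1870, 3220, 3676 and 2036 CPM in SI1 to SI4 and 145.7, 143.3, 116.3 and 131.7 CPM in COL1 to COL4. The COL values were close to each other, and the lowest SI value was still far above them. The means were 2701 ± 886 and 134.3 ± 13.4 CPM (SD, n = 4 each), a log2 fold change of 4.33 (SE 0.46, edgeR adjusted p = 5.11e-05). Even so, 2.32% of the genes tested had a larger fold change towards the SI. Of the 50-base stretches of its longest transcript, 0.388% are found in Mgam2-ps as well.

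Treh (ENSMUSG00000032098, chr9:44673233-44686305, plus strand) encodes trehalase, which splits the sugar of fungi and insects. It was found at 1470, 449.1, 761.4 and 1023 CPM in the SI libraries. In the COL it was at 0.352, 0, 1.26 and 1.97 CPM, where the 0 in COL2 allows up to 0.186 CPM (3 counts). The means were 925.8 ± 432 and 0.894 ± 0.891 CPM (SD, n = 4 each), and the log2 fold change was 9.94 (SE 1.06, edgeR adjusted p = 5.64e-05). Treh varied more among the SI libraries than the other disaccharidases, the highest SI library being SI1. The log2 fold change was 10.64 without COL4. It was 11.34 among the libraries of high mitochondrial share, which rests on 12 and 0 counts of Treh in COL1 and COL2. A transcript of Gm47238 shares 1.55% of its 50-base stretches, and 2 exon bases overlap Phldb1 on the opposite strand.

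Summed over the 4 disaccharidases, the level varied little within a tissue, from 8461 to 10230 CPM in the SI and from 132.5 to 155.6 CPM in the COL. The make-up of that sum differed. Per kilobase of merged exons, the ratio of Mgam to Sis was 0.781 to 1.28 in the SI libraries and 6.88 to 83.5 in the COL libraries. The ratio of Lct to Sis was 0.834 to 2.54 in the SI and 0.0344 to 0.870 in the COL, where the ranges overlap. Most of the summed CPM in the COL was thus that of Mgam.

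The 3 sugar transporters were higher in the SI by log2 fold changes of 5.63 to 10.62. Slc5a1 (ENSMUSG00000011034, chr5:33104219-33162870, plus strand), the sodium-coupled glucose transporter SGLT1 of the apical membrane, stood at 6143, 7012, 8366 and 9181 CPM in SI1 to SI4. In COL1 to COL4 it stood at 83.3, 103.3, 220.6 and 213.4 CPM. COL3 and COL4, the COL libraries of low mitochondrial share, held more of it than COL1 and COL2. The means were 7675 ± 1358 and 155.1 ± 72.0 CPM (SD, n = 4 each), and the log2 fold change was 5.63 (SE 0.63, edgeR adjusted p = 7.34e-05). It was 5.14 among the libraries of low share and 6.30 among those of high share.

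Slc2a2 (ENSMUSG00000027690, chr3:28697903-28731359, plus strand), which encodes the GLUT2 of the basolateral membrane, had the largest fold change of the 9 genes by edgeR without a donor term over all 8 libraries. The SI libraries held 741.1, 619.7, 1196 and 785.5 CPM, and the COL libraries 0.176, 0.808, 0.107 and 1.05 CPM, from 6, 13, 4 and 50 counts. The groups lay far apart, and COL4 and COL2 held more than COL1 and COL3. The means were 835.6 ± 250 and 0.535 ± 0.465 CPM (SD, n = 4 each), a log2 fold change of 10.62 (SE 0.86, edgeR adjusted p = 1.43e-05), and 18 of the genes tested had a larger one. Without COL4 it was 11.35. The rank changed with the fit, as Lct was above Slc2a2 with limma-voom (11.63 against 11.10) and with the donor block in edgeR (11.21 against 10.91).

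Slc2a5 (ENSMUSG00000028976, chr4:150119283-150144169, plus strand), the fructose transporter GLUT5, stood at 508.6, 499.5, 1003 and 822.1 CPM in the SI libraries. The COL libraries held 1.56, 2.98, 20.3 and 16.3 CPM. COL3 and COL4 were again the high COL libraries, by more than for Slc5a1. The means were 708.3 ± 247 and 10.3 ± 9.40 CPM (SD, n = 4 each), and the log2 fold change was 6.10 (SE 0.85, edgeR adjusted p = 0.00031). Among the libraries of low mitochondrial share it was 5.18 and among those of high share 8.34, a wider span than for the other transporters. The part of the mitochondrial share in these values was not tested beyond this split.

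Both sugar-metabolising enzymes were higher in the SI. Khk (ENSMUSG00000029162, chr5:30921431-30931248, plus strand), ketohexokinase, was at 1741, 775.5, 1148 and 1036 CPM in SI1 to SI4 and at 22.2, 14.8, 32.7 and 30.5 CPM in COL1 to COL4. SI1 was the highest SI library and COL2 the lowest COL library. The means were 1175 ± 408 and 25.0 ± 8.21 CPM (SD, n = 4 each), and the log2 fold change was 5.55 (SE 0.48, edgeR adjusted p = 1.79e-05), with 5.45 and 5.63 among the libraries of low and high mitochondrial share.

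G6pc (ENSMUSG00000078650, chr11:101367561-101377903, plus strand) encodes the catalytic subunit of glucose-6-phosphatase, which is best known in liver and kidney. It was the lowest of the 9 genes in the SI, at 194.3, 76.3, 44.5 and 131.5 CPM. In the COL it had 0 counts in COL1 and COL2, which allows up to 0.088 and 0.186 CPM, and stood at 0.348 and 0.126 CPM in COL3 and COL4, from 13 and 6 counts. The means were 111.6 ± 65.8 and 0.118 ± 0.164 CPM (SD, n = 4 each), and the log2 fold change was 9.65 (SE 0.90, edgeR adjusted p = 2.69e-05). It was 10.82 without COL3. No fold is given for the libraries of high mitochondrial share, since G6pc was at 0 in both COL libraries of that set.

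**Figure D2:**
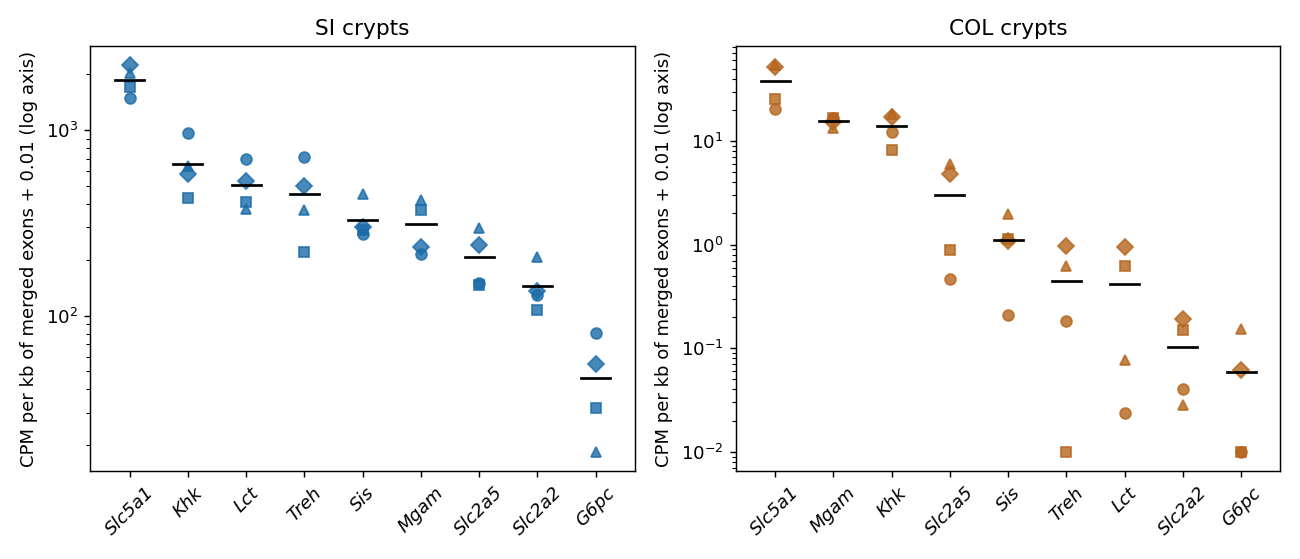
Level of the 9 genes per kilobase of merged exons (CPM per kb + 0.01, log axes that differ between the panels) in SI crypts (left) and COL crypts (right), in order of their mean. Circles, squares, triangles and diamonds are mice 1 to 4 and black bars are means. Slc5a1 leads both orders, while Mgam stands near the middle of the SI order and next to the top of the COL order.

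Levels of different genes were compared per kilobase of merged exons. Slc5a1 led in the SI with 1870 ± 331 CPM per kb (SD, n = 4), above Khk at 654 ± 227 without overlap. Lct followed at 504 ± 145, Treh at 452 ± 211, Sis at 329 ± 82.7, Mgam at 310 ± 102, Slc2a5 at 208 ± 72.6 and Slc2a2 at 145 ± 43.5 CPM per kb, each overlapping with its neighbour. G6pc was last at 46.2 ± 27.3 CPM per kb, below every value of Slc2a2. In the COL Slc5a1 also led, at 37.8 ± 17.5 CPM per kb and without overlap with the next gene. Mgam at 15.4 ± 1.54 and Khk at 13.9 ± 4.57 CPM per kb came next and overlapped. Both were above Slc2a5 at 3.02 ± 2.76 and Sis at 1.09 ± 0.712 CPM per kb. Treh, Lct, Slc2a2 and G6pc had means of 0.437, 0.407, 0.0929 and 0.0490 CPM per kb. Among the 9 genes Slc5a1 thus ranked highest in both tissues. The means of the other genes were ordered differently in the SI and the COL, but most neighbouring ranges overlapped in each tissue.

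**Figure D3:**
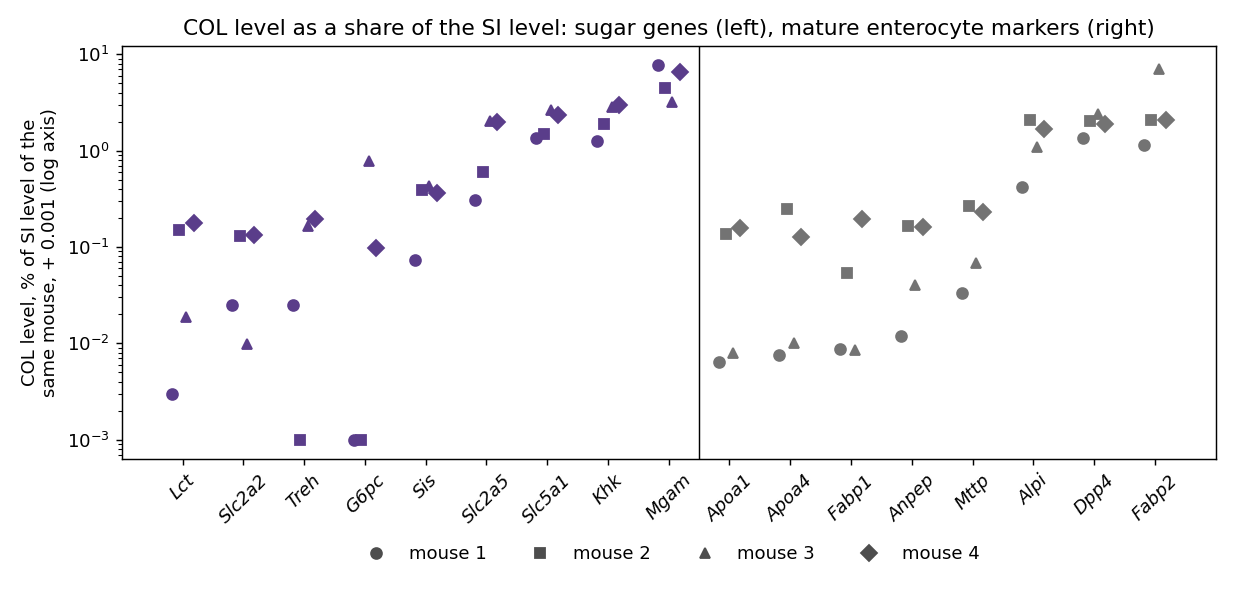
COL level of each gene as a percentage of the SI level of the same mouse, plus 0.001, on a log axis, for the 9 sugar genes (left, purple) and 8 mature enterocyte markers (right, grey), with a symbol for each mouse. Mgam lies highest among the sugar genes, at 3.16% to 7.79%, and Lct and Slc2a2 show mice 2 and 4 above mice 1 and 3, as do Apoa1 and Mttp.

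Within each mouse, the COL library held 3.16% to 7.79% of the SI level of Mgam, 1.27% to 2.94% of that of Khk and 1.36% to 2.64% of that of Slc5a1. The values were 0.306% to 2.02% for Slc2a5 and 0.073% to 0.43% for Sis, and at most 0.782% for G6pc, 0.192% for Treh, 0.175% for Lct and 0.133% for Slc2a2. Which mouse was high differed between genes. Lct and Slc2a2 were higher in mice 2 and 4 than in mice 1 and 3, with 0.13% and 0.133% against 0.0238% and 0.00894% for Slc2a2. Of the 8 mature enterocyte markers 6 had the same order, while Dpp4 and Fabp2 did not. The COL level as a share of the SI level was 0.265% and 0.228% against 0.0321% and 0.0671% for Mttp. Treh, Slc5a1, Slc2a5 and Khk were higher in mice 3 and 4 than in mice 1 and 2, and the COL libraries of mice 3 and 4 had the low mitochondrial share. The order of G6pc is not resolved, since its 0 in COL2 allows up to 0.186 CPM, above the 0.126 CPM in COL4. Tkfc, triokinase, a later enzyme of fructose breakdown, had that order too, with 3.21% and 3.33% against 1.29% and 1.68%. Sis and Mgam had neither order. These orders over 4 mice are descriptions.

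The SI libraries differed among themselves in 2 ways. Lct, Treh, Khk and G6pc were highest in SI1, while Sis, Mgam, Slc2a2 and Slc2a5 were highest in SI3 and Slc5a1 in SI4. Sis, Mgam and Slc5a1 were lowest in SI1, and Slc2a2 and Slc2a5 lay below the SI mean there. The goblet cell markers Muc2, Tff3, Clca1 and Fcgbp were highest in SI1. SI1 also held the most of the villus tip markers Ada (2936 CPM against 287.3 to 1491), Slc28a2 (709.1 against 89.5 to 304.9) and Nt5e (329.4 against 12.3 to 63.1). It held the least of Lgr5, Olfm4, Ascl2, Smoc2, Mki67, Top2a, Lyz1 and Mmp7, with the stem cell list summing to 12.3 CPM against 187.9 to 290.2 and the Paneth list to 71.6 CPM against 451.9 to 789.3. Lct, Treh and G6pc were higher in both female SI libraries than in both male ones and Mgam was lower, while the mitochondrial share parted the same libraries. These differences within the SI were not tested. Without SI1 and COL4, chosen after the data had been examined, all 9 genes were still higher in the SI.

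**Figure D4:**
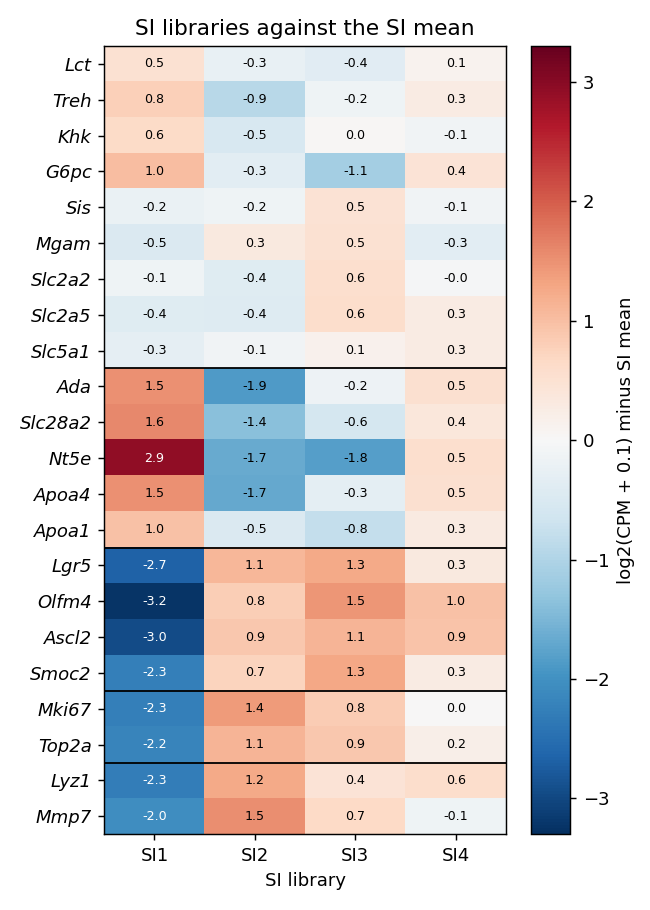
Difference of each SI library from the SI mean, as log2(CPM + 0.1), for the 9 sugar genes (top block) and, below the lines, enterocyte and villus tip markers, stem cell markers, proliferation markers and Paneth cell markers. Red is above and blue below the SI mean. SI1 is above the mean for Lct, Treh, Khk, G6pc and all 5 markers of the second block. It is below the mean for the other sugar genes and the other marker genes shown.

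The study sampled females and males, so the tissue difference was also compared between the sexes by an interaction term. None of the 9 genes passed this test. The term was -2.99 on the log2 scale for G6pc, male minus female (SE 1.37, edgeR unadjusted p = 0.0502, adjusted p = 0.909), and the other 8 genes had adjusted p-values of 0.956 to 1. The G6pc term rests on 0, 0, 13 and 6 counts in COL1 to COL4, and within the SI the sex and the mitochondrial share cannot be told apart. Over all genes edgeR called 0.0%, with 5.25% at an unadjusted p below 0.05, while DESeq2 called 11 genes and edgeR without a filter 78, none of them among the 9.

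Genes of the other sugar lists, which include regulators and sensors, did not move in 1 direction. Of these 54 genes 44 were tested, 11 of them regulators or sensors, with a median log2 fold change of 1.08. Among the 44, 23 were higher in the SI (5 of them regulators or sensors) and 12 in the COL (1 of them). The shares over all genes tested were 15.5% and 12.9% in these directions. Scaled by library size alone, which moves the median of all genes from -0.09 to -0.82, the counts were 18 and 15. In every other setting in which they were tested, 17 of the 23 and 6 of the 12 had the same call. The exceptions were Ganc, Sord, Pcx, Galt, Mlx and Gata6 towards the SI and Glb1, Slc2a6, Slc2a8, Slc2a10, Pck2 and G6pc3 towards the COL, of which Sord, Pcx, Galt, Mlx and Gata6 were lost under library size scaling. These are differences in RNA level, and the activity of the products was not measured.

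Among 16 genes listed as other hexose transporters, not all of which carry hexoses, 11 were tested. Of these, 6 were higher in the SI and 5 in the COL, against 15.5% and 12.9% of all genes tested. Slc5a11, a sodium-coupled carrier of myo-inositol, was at 359.5 ± 75.8 CPM in the SI and 0.121 ± 0.178 CPM in the COL, with a log2 fold change of 11.23. Slc5a4a at 9.83 and Slc5a4b at 6.91, relatives of Slc5a1, and Slc2a7 at 9.15, a relative of Slc2a5, were likewise higher in the SI and stood at 2.94 CPM or less in every COL library, and Slc2a9 and Slc5a9 were higher there by 4.00 and 2.45. Slc2a1, the GLUT1 that supplies glucose to most cells, went the other way, with 4.26 ± 1.69 CPM in the SI and 98.6 ± 54.5 CPM in the COL (SD, n = 4 each), a log2 fold change of -4.53 (SE 0.50, edgeR adjusted p = 7.02e-05). Slc2a13 at -6.06, Slc2a6 at -4.03, Slc2a10 at -1.97 and Slc2a8 at -1.69 were also higher in the COL. The call of Slc2a10 was lost without COL4, that of Slc2a8 without COL1 and those of all 3 of Slc2a6, Slc2a8 and Slc2a10 among the libraries of high mitochondrial share, where Slc2a6 was at -1.88 against -6.33 among those of low share. The call of Slc2a8 was lost among the latter too. Per kilobase, Slc5a1 exceeded Slc2a1 864.5 to 2754 times in the SI libraries and 1.17 to 1.63 times in the COL libraries. Slc2a5 exceeded Slc2a1 86.4 to 279 times in the SI, and its ratio to Slc2a1 was 0.0368 to 0.134 in the COL.

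Enzymes that act after Khk in fructose breakdown were higher in the SI as well. Tkfc was at 1194, 492.4, 903.7 and 799.7 CPM in the SI and at 15.4, 8.27, 29.0 and 26.6 CPM in the COL, a log2 fold change of 5.41 (SE 0.54, edgeR adjusted p = 3.67e-05). Like Khk, it was highest in SI1 and lowest in COL2. Glyctk, glycerate kinase, was higher in the SI by 3.57. Sord, which makes fructose from sorbitol, was higher in the SI by 1.76, and Akr1b3, which makes sorbitol from glucose, was lower by 2.66. Hk1 and Hk2, hexokinases of glycolysis, were lower in the SI, with log2 fold changes of -4.26 and -2.76. The ratio of Hk1 to Khk per kilobase was at most 0.00202 in the SI and 0.755 to 1.26 in the COL.

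Beside G6pc, the glucose-6-phosphate carrier Slc37a4 was higher in the SI by 3.37 on the log2 scale. The fructose bisphosphatases Fbp1 (5.61) and Fbp2 (2.10), Pck1 (2.31), a cytosolic enzyme of glucose production, and Pcx (1.60), pyruvate carboxylase, were higher there too. Pck1 differed least in mouse 3, with 263.4 CPM in SI3 and 206.7 CPM in COL3. G6pc3, the phosphatase of most tissues, was higher in the COL, with a log2 fold change of -1.40, and the ratio of G6pc to G6pc3 per kilobase was 2.70 to 13.1 in the SI and at most 0.00645 in the COL. Pck2, the mitochondrial counterpart of Pck1, was higher in the COL (-1.82), a call lost without any 1 of SI4, COL1, COL3 and COL4. Of the enzymes that handle galactose, the second product of lactase, Galm (3.08) and Galt (1.02) were higher in the SI, while Galk1 at 0.16 (SE 0.33) did not pass the test. Hkdc1 was higher in the SI by 2.84. In all, 11 of the 18 tested enzymes were higher in the SI and 5 in the COL. The shares over all genes tested were 15.5% and 12.9%. Of the related glycosidases, 4 were tested, with Ganc, a neutral alpha-glucosidase, higher in the SI by 1.52 and Glb1, the lysosomal beta-galactosidase, higher in the COL (-1.35), a call lost without any 1 of SI1, SI2, COL3 and COL4.

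**Figure D5:**
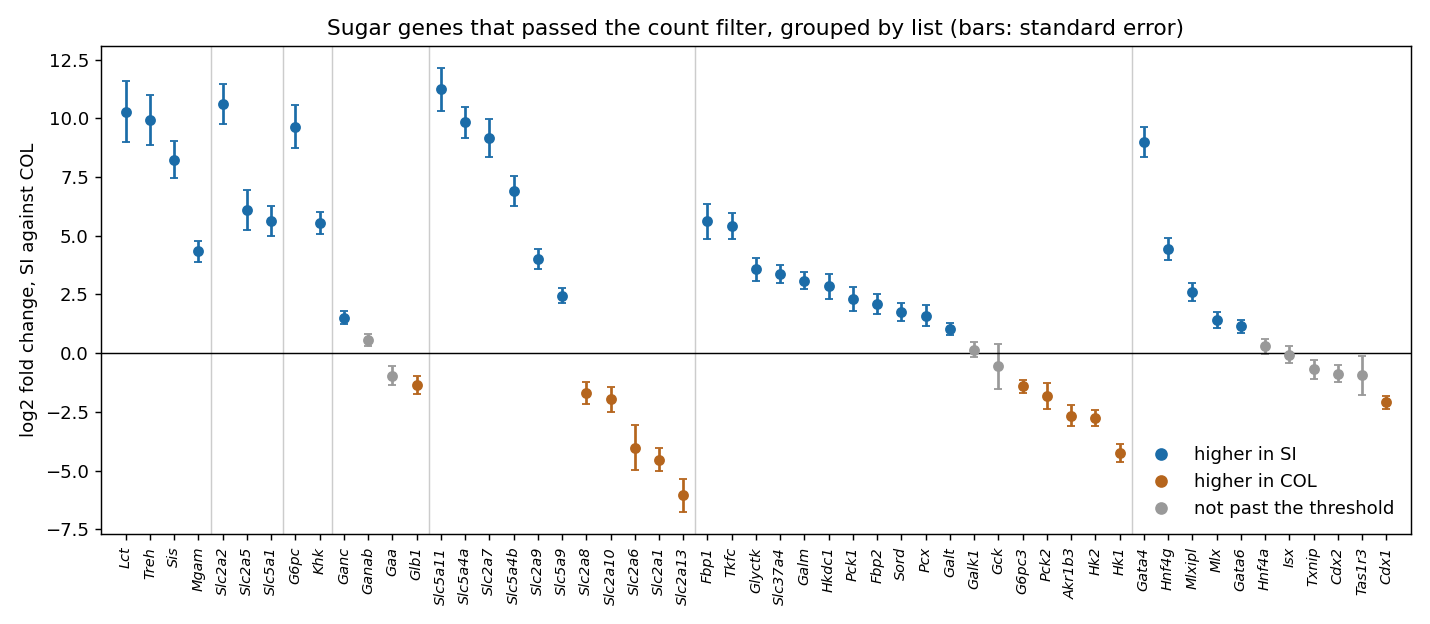
Log2 fold change, SI against COL, of the 9 sugar genes (first 3 blocks, disaccharidases, transporters and enzymes) and the 44 tested other sugar genes (related glycosidases, other hexose transporters, enzymes, regulators and sensors), with bars of 1 standard error. The 9 genes lie between 4.33 and 10.62. The genes listed as other hexose transporters range from -6.06 (Slc2a13) to 11.23 (the myo-inositol carrier Slc5a11).

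Of 13 regulators and sensors, 11 were tested, and 5 were higher in the SI and 1, Cdx1, in the COL. Over all genes tested, 15.5% were higher in the SI and 12.9% in the COL. Gata4, a factor of the proximal intestine, was at 48.3 to 52.9 CPM in the SI libraries and at most 0.189 CPM in the COL libraries, a log2 fold change of 8.98 (SE 0.64, edgeR adjusted p = 8.57e-06). Hnf4g was higher in the SI by 4.44, Mlxipl, the carbohydrate response factor ChREBP, by 2.59, its partner Mlx by 1.42 and Gata6 by 1.14. Cdx1 was at -2.09. Hnf4a at 0.29 (SE 0.31) did not pass the test, and its sign turned with scaling by library size or upper quartile. Cdx2 was at -0.87 (SE 0.36, edgeR adjusted p = 0.0918) and did not pass. It did pass without COL2, with scaling by library size or upper quartile, and among the libraries of low mitochondrial share. With at least 10 counts asked of every library it passed too. Txnip, which answers to glucose, was at -0.68 (SE 0.40) and did not pass.

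The genes outside these lists whose profile over the 8 libraries was most like the mean profile of the 9 genes were Gpr155, Slc30a2, Tm4sf5, Ace and Rbp2. Their root mean square difference from it was 0.268, 0.32, 0.338, 0.383 and 0.385 on the log2 scale. The 9 genes themselves lay 0.629 (Sis) to 2.06 (Lct) from that mean, with Mgam at 2.05. Ace, angiotensin-converting enzyme of the brush border, was at 1545 ± 309 CPM in the SI and 6.86 ± 2.16 CPM in the COL, and Rbp2, a retinol-binding protein of enterocytes, at 10500 ± 4149 and 32.8 ± 18.1 CPM (SD, n = 4 each).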

How the data were processed

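RNA-Seq counts of 4 SI and 4 COL crypt libraries were used as deposited by the authors, as whole-number counts per Ensembl gene without normalization. Per the labels, reads were trimmed with Trimmomatic 0.36 and aligned and counted with STAR 2.5.2b. The labels name the builds mm9 and mm10 and the methods mm10. Which annotation was counted against, and whether strand was used, is not given in the sources used here. Groups, replicate numbers and donors came from the labels. Symbols and coordinates came from GENCODE vM21 (GRCm38), which lacks 563 of the 45706 identifiers, and upstream windows from RefSeq (GRCm38.p6).

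EdgeR 4.0.16 (R 4.3.3) was run with TMM scaling and without a donor term, on genes kept by filterByExpr by tissue (for a library of median size about 10 counts, reached in 4 or more libraries, and 15 in all). CPM are counts over the TMM-scaled sum of the genes kept. No term for the sex was in the test of the tissues. The donor labels pair SI and COL libraries, and the correlation of their deviations from the tissue means was -0.24, 0.393, -0.0786 and 0.327 for mice 1 to 4. Limma 3.58.1 (voom), DESeq2 1.42.0, donor blocks, other scalings and filters, a test against a log2 change of 1, the libraries of low or high mitochondrial share and the loss of each library were alternatives. The intervals and limits for low counts cover counting error only.

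The members and lists were chosen with earlier results of these data known. The named genes are the 9 genes, genes of the other sugar lists that passed the test or stood above the SI level of G6pc, marker genes, and the 5 genes of nearest profile. Galk1 and Cdx2 fall outside this rule and were named after their values were seen. Some genes of the lists are not reported here.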

Additional observations from a re-analysis of the deposited data

Results flagged for a closer look

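The level of Sis in SI3, 3374 CPM, lay far from the other SI libraries. The nearest, SI4, had 2235 CPM, and the gap took 0.86 of the range of the 4 libraries, above Dixon's critical value at 95% for 4 samples. It was the 1 such value among the 18 groups examined (9 genes in 2 tissues), and chance flags about 1 in 20 groups. Without each library in turn, the log2 fold change of Sis ranged from 7.90 to 8.69.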

How the results depend on the processing

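All 9 sugar genes kept their direction and stayed past the threshold in each of the alternatives in which they were tested, 20 for Lct, Treh, Slc2a2 and G6pc and 21 for the others, and the highest adjusted p was 0.00687 (Lct). With at least 10 counts asked of every library, 5 of the 9 remained to be tested and all 5 were higher in the SI. The count was 9 without each library in turn. Scaling by library size alone lowered every log2 fold change, to 3.60 for Mgam and 9.88 for Slc2a2. Limma-voom gave 11.63 for Lct and 10.43 for G6pc. With the donor mouse as replicate block, the fit gave 11.21 for Lct and 6.71 for Slc2a5, and the block changed none of the calls of the 9 genes and left the counts of other sugar genes at 23 and 12. Of the other sugar genes, those higher in the COL numbered 7 in the test against a log2 change of 1 and 6 among the libraries of high mitochondrial share. Without each library in turn they numbered 9 to 14, and those higher in the SI 23 to 24. Without COL4 and SI1, a choice made after seeing the data, the counts were 9 for the sugar genes and 22 and 8 for the others. The causes of these shifts were not tested. In the COL libraries Lct, Treh, Slc2a2 and G6pc had 0 to 286 counts.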

Other observations

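Pairs of enzymes for the same reaction, picked after their values had been seen, differed in balance between the tissues. Per kilobase of merged exons, the ratio of Hkdc1 to Hk1 was 77.7 to 130 in the SI libraries and 0.429 to 0.950 in the COL libraries, and that of Hkdc1 to Hk2 was 26.0 to 58.0 and 0.178 to 1.49. The ratio of Pck1 to Pck2 was 30.3 to 529 in the SI, highest in SI1, and 4.23 to 9.39 in the COL. Among sugar carriers, Slc2a5 exceeded Slc2a7 by 2.70 to 3.61 times in the SI. Slc5a1 exceeded Slc2a2 by 9.81 to 16.4 times in the SI and by 179.3 to 2891 times in the COL, where Slc2a2 had 4 to 50 counts.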
